A study of Mus musculus with 6 samples.

Results

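The translation initiation and elongation factors measured here were 56 genes of the 30142 with a named signal on the arrays. They comprised every gene whose symbol stands alone on a probe and begins with Eif or Eef and a number, apart from the eIF2 kinases and pseudogenes, together with the poly(A) binding protein genes Pabpc1 and Pabpc4 and with Tpt1. Where a gene had several probes, the one with the highest mean over the 6 arrays stood for it, which concerned Eif3d alone. The symbol pattern also took in Eif2c5, annotated in RefSeq as a long non-coding RNA, which is no translation factor. It is left out of the counts by role below but stays in the counts and medians over all factors. Of the 56 genes, 52 reached the intensity floor for testing, a mean of 4.228 on the log2 scale, and Eif2a, Eif2b3, Eif2s3y and Eef1akmt1 did not. Factors that the arrays name only together with a second gene, such as Eif4a2, Eif4a3 and Eif5, are not among the 56. Eif1, Eif2s1, Eif3g and Eif4g1 were not analysed here.

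Mouse blood platelets and bone marrow cells labelled as megakaryocyte progenitors were each profiled after 3 treatments, named CTC41.5G-EVs, CTC41-EVs and PBS, the last being the control. EVs commonly stands for extracellular vesicles, the small membrane-bound particles that cells shed. The labels do not say what CTC41 and CTC41.5G are. Each of the 6 groups was 1 array of RNA pooled over the mice of that group, and strain, age, dose, route and time are not given. Pools were used directly or after bead depletion of leukocytes and erythrocytes, without a statement of the handling of each. No group had a second array, so every p-value below rests on the spread left after additive terms for cell type and treatment. This spread, on 2 residual degrees of freedom, was moderated across the genes tested, which added 5.044 prior degrees of freedom.

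Translation of most messenger RNAs starts when the cap-binding complex eIF4F, made of eIF4E, a scaffold eIF4G and the helicase eIF4A, recruits a small ribosomal subunit that carries eIF3, eIF1, eIF1A and the initiator tRNA bound to eIF2. The 4E-binding proteins hold eIF4E back when the kinase mTOR is inactive, and eIF2B recharges eIF2 with GTP. Elongation then needs eEF1A, which brings aminoacyl-tRNAs, its exchange factor eEF1B, and the translocase eEF2. Many of these factors, like the ribosomal proteins, are encoded by messenger RNAs with a 5′ terminal oligopyrimidine tract (TOP), a pyrimidine run right at the cap through which mTOR controls their translation in mammalian cells. Platelets have no nucleus. They inherit their RNA from megakaryocytes and can translate part of it.

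The platelet arrays carried platelet RNA by their markers. All 9 platelet and megakaryocyte markers tested were called higher in platelets (median log2 difference 4.59), with a mean log2 signal of 10.3 to 10.7 per platelet array, against 5.33 to 5.51 per progenitor array. Markers of further blood cell types moved too. All 10 neutrophil markers were lower in platelets, with list means of 4.99 to 5.21 on platelet arrays and 7.01 to 7.20 on progenitor arrays. All 5 erythroid markers tested were higher in platelets, with list means of 7.48 to 7.65 on platelet arrays and 4.91 to 5.03 on progenitor arrays. B lymphoid list means were 4.59 to 4.65 on platelet arrays and 5.32 to 5.41 on progenitor arrays. In platelets the mean lay under the floor for 3 neutrophil, 2 B lymphoid, 2 stem and progenitor, 1 erythroid and 1 monocyte marker. In progenitors it did so for 2 platelet, 1 B lymphoid, 1 erythroid and 1 monocyte marker. Of 6 stem and progenitor markers, Slamf1 was higher in platelets (4.94, SE 0.14), Kit (-1.39, SE 0.09) and Myb (-0.93, SE 0.09) were lower, and Cd34, Flt3 and Gata2 were not called. Of 5 monocyte markers tested, Lyz2 was higher (2.94, SE 0.17) and 4 were not called. In such bulk RNA, fewer cells of a type and less RNA per cell cannot be told apart, and the part of other cells in the results below was not tested.

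The first comparison asked which factors distinguished platelets from progenitors over the 3 treatments. In platelets 20 of the 52 factors tested were higher, led by the eIF3 subunit gene Eif3h, Pabpc1, the cap-binding protein gene Eif4e and the scaffold gene Eif4g2, and 2 were lower, Eif4e1b and the non-coding Eif2c5. For 5 of the 20, Eif4e, Eif1b, Eif2s2, Eif3e and Eif3a, the progenitor mean lay below the floor. They entered the test only through their platelet values, and they remain in the counts by role, list and sequence below. A factor was called at a limma adjusted p of at most 0.05, adjusted by Benjamini-Hochberg over all 18875 genes tested, and a difference of at least 1.5-fold. Over all genes tested 16.2% were called higher and 25.7% lower, and these shares belong beside every count by role or list below. The values of the 2 cell types did not overlap for 27 factors that were higher and 10 that were lower in platelets, while 24.2% of all genes lay without overlap above and 54.2% below. The median log2 difference, platelets minus progenitors, was 0.23 over the factors and -0.26 over all genes tested.

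**Figure D1:**
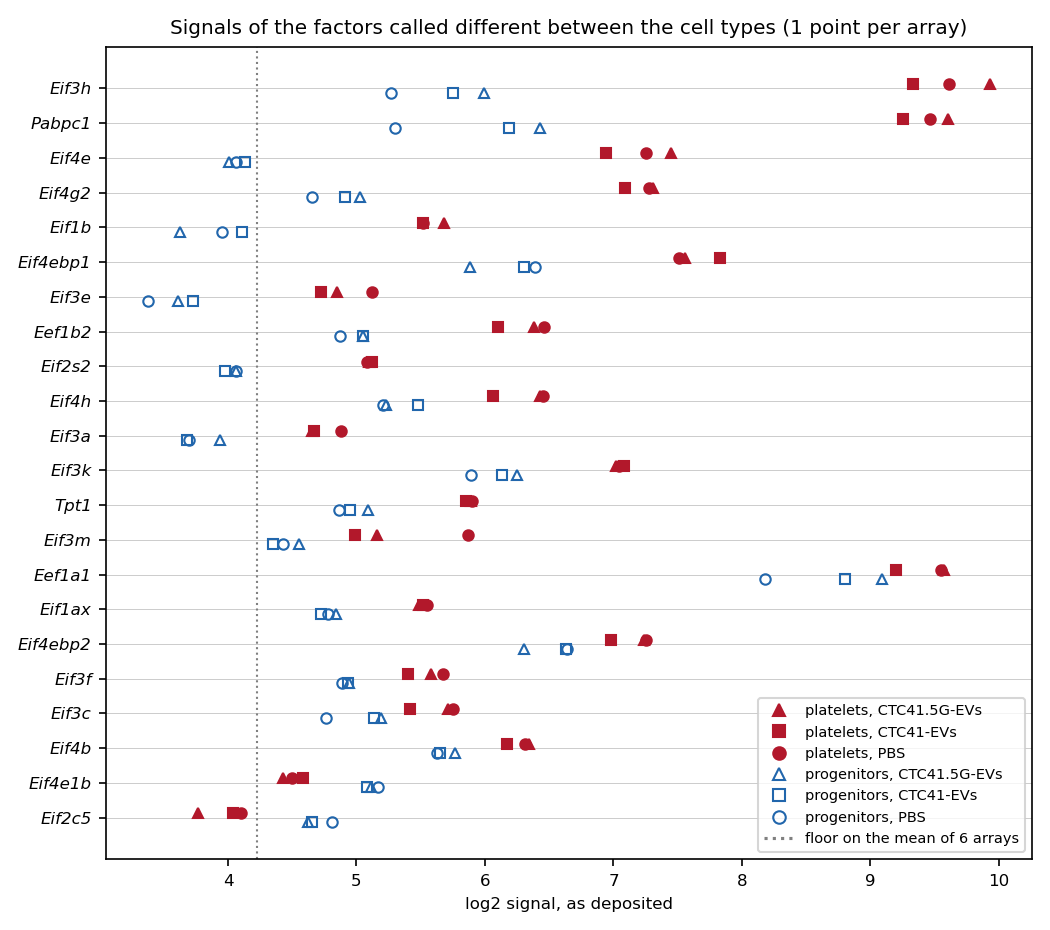
Log2 signal, as deposited, of the 22 factors called different between the cell types, with 1 point per array, filled for platelets and open for progenitors, and a dotted line at the floor of 4.228. The platelet points of Eif3h lie at 9.33 to 9.93 and those of progenitors at 5.27 to 5.99, and for each of the 22 genes the cell types do not overlap.

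Sequence around the gene starts was available from RefSeq (GRCm38.p6) for 41 of the 56 genes, from 250 bases before to 50 bases after each annotated start. The letters CACGTG, which read the same on both strands and form the E-box bound by MYC and related factors, occurred in at least 1 start region of 11 of these 41 genes (26.8%) and of 2187 of 27025 genes in the table (8.1%). Eif3h, Pabpc1, Eif4g2, Eif3e and Eif4ebp1 were called higher in platelets but had no start region available. Of the 15 factors called higher that had one, 6 held CACGTG, as did 5 of the 26 others. The windows of those 6 genes are shown because they were called higher in platelets. Each is 30 bases, 5′ to 3′ on the strand of the gene, with the E-box in capitals, and distances are counted from the first base of the E-box. A match is a description of the letters only.
Eif4e, chr3:138527028-138527057, plus strand, 228 bases before a start: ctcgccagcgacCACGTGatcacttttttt
Eif4e, chr3:138527192-138527221, plus strand, 64 bases before a start: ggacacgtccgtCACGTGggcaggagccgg
Eif1b, chr9:120492570-120492599, plus strand, 24 bases before the start: cgtgcggacggtCACGTGgcggcggcgcgc
Eif4h, chr5:134639488-134639517, minus strand, 96 bases before the start: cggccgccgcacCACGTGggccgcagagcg
Eif3a, chr19:60790654-60790683, minus strand, from base 23 after the start: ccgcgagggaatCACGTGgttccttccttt
Eif3k, chr7:28981915-28981944, minus strand, 44 bases before the start: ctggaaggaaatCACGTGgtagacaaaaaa
Eif3f, chr7:108934335-108934364, plus strand, 68 bases before the start: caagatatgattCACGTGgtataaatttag

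Among start codon recognition factors, 3 of 8 tested were higher in platelets and 0 lower, with a median log2 difference of 0.46. Eif1b encodes a close relative of eIF1, the factor that monitors start codon pairing. Its log2 signal was 5.68, 5.52 and 5.52 on the platelet arrays with CTC41.5G-EVs, CTC41-EVs and PBS, against 3.63, 4.11 and 3.95 on the progenitor arrays in the same order of treatments, which is kept in all such triples below. All 3 progenitor values lay below the floor. The difference was 1.68 with SE 0.13 (3.20-fold, limma adjusted p = 3.51e-05), and 1.34 when measured from the floor. Eif1 itself was not analysed here.

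Eif2s2, the beta subunit of eIF2, was at 5.10, 5.12 and 5.08 in platelets and at 4.06, 3.98 and 4.06 in progenitors. The platelet values differed by no more than 0.04 among treatments, and the progenitor values lay just under the floor. Its difference was 1.07 (SE 0.08, adjusted p = 4.1e-05), or 0.87 from the floor. The gamma subunit has an X-linked and a Y-linked gene in the mouse. Eif2s3x stood at 4.99, 4.86 and 5.32 in platelets and 4.58, 4.57 and 4.58 in progenitors, without overlap, and at 0.48 (SE 0.11, adjusted p = 0.00495) it stayed under 1.5-fold. Eif2s3y lay below the floor on every array, at 3.55, 3.45 and 3.25 in platelets and 2.93, 2.86 and 2.75 in progenitors, and was not tested.

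The eIF1A genes form a like pair, Eif1ax on chromosome X and the autosomal Eif1a. Eif1ax was at 5.49, 5.52 and 5.55 in platelets and 4.84, 4.72 and 4.78 in progenitors, a difference of 0.74 (SE 0.08, adjusted p = 0.000207). For Eif1a the platelet values of 5.26, 5.31 and 4.95 overlapped the progenitor values of 4.92, 5.00 and 4.80, and its 0.27 (SE 0.08) was not called. The subunit-joining factor gene Eif5b differed by 0.44 (SE 0.09), under 1.5-fold, and Eif1ad, related to eIF1A, by -0.06, which turned above 0 under all 3 other scalings. Eif2d, which can place initiator tRNA without eIF2, differed by -0.40 (SE 0.08, adjusted p = 0.00318), also under 1.5-fold, and turned above 0 after centring on olfactory receptor genes. Of the eIF2B exchange factor, 0 of 4 subunit genes tested were called. Their differences ran from -0.27 (Eif2b1) to 0.05 (Eif2b2), around the median of all genes, and those of Eif2b1, Eif2b4 and Eif2b5 turned above 0 under all 3 other scalings.

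The eIF3 complex, the scaffold that ties the small subunit to the messenger RNA, had 7 of its 12 tested genes higher in platelets and 0 lower, with a median of 0.61. Eif3h, which in zebrafish and Arabidopsis affects the translation of particular messages, gave the largest difference of all 52 factors. Its signal was 9.93, 9.33 and 9.61 in platelets, against 5.99, 5.75 and 5.27 in progenitors. The difference was 3.95 with SE 0.19 (15.5-fold, adjusted p = 4.95e-06), while the values within a cell type spread over less than 1 log2 unit. Eif3e, another subunit of the core octamer of human eIF3, was at 4.85, 4.72 and 5.12 in platelets and at 3.61, 3.73 and 3.38 in progenitors, all of the progenitor values under the floor. Its difference of 1.32 (SE 0.15, adjusted p = 0.000235) was 0.67 from the floor.

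Eif3a, the core subunit, showed 4.65, 4.67 and 4.88 in platelets and 3.94, 3.68 and 3.70 in progenitors, a difference of 0.96 (SE 0.12) that was 0.51 from the floor, less than 1.5-fold. Eif3k, a subunit that budding yeast lacks, showed 7.02, 7.08 and 7.04 in platelets against 6.25, 6.13 and 5.89 in progenitors, also 0.96 (SE 0.13). Adjusted p was 0.000355 for Eif3a and 0.000518 for Eif3k. Eif3m, also of the octamer, had the widest spread among the platelet arrays of the 52 factors tested. It stood at 5.16, 4.99 and 5.87 in platelets, with the PBS array high, and at 4.55, 4.35 and 4.43 in progenitors, a difference of 0.90 (SE 0.16, adjusted p = 0.00207).

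Smaller differences were found for Eif3f (5.58, 5.40 and 5.67 in platelets against 4.94, 4.93 and 4.89 in progenitors, 0.63 with SE 0.09) and Eif3c, a core subunit (5.71, 5.42 and 5.75 in platelets against 5.19, 5.14 and 4.76 in progenitors, 0.60 with SE 0.14). Adjusted p was 0.000847 and 0.0065. Neither call held when either PBS array was left out, which gave 0.55 for Eif3f and 0.40 for Eif3c. The other 5 subunit genes, Eif3d, Eif3l, Eif3b, Eif3i and Eif3j2, overlapped between the cell types and differed by 0.19 to -0.29. Among them, Eif3l, Eif3b and Eif3i differed by 0.10 (SE 0.10), 0.05 (SE 0.11) and -0.02 (SE 0.12). The stoichiometry of the protein complex was not measured.

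**Figure D2:**
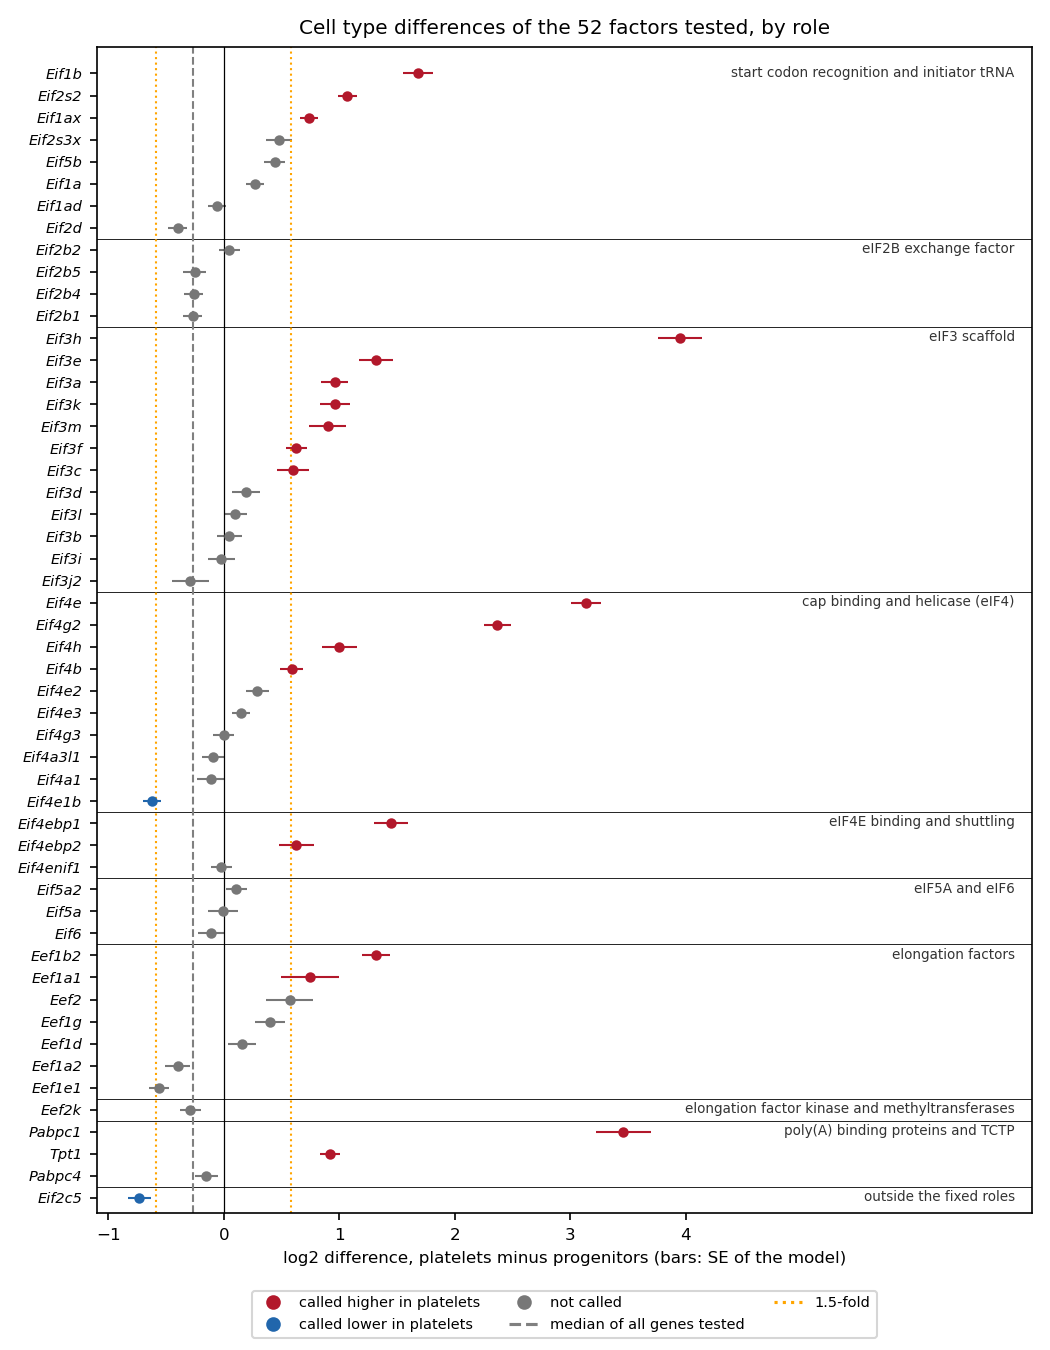
Log2 difference, platelets minus progenitors, of each of the 52 factors tested, grouped by role, with bars for the SE of the model, dotted lines at 1.5-fold and a dashed line at the median of all genes, -0.26. The eIF3 block runs from -0.29 to 3.95, and the eIF2B block and the eIF5A and eIF6 block lie between -0.27 and 0.11.

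Of 10 cap-binding and helicase genes tested, 4 were higher and 1 lower in platelets, and the median was 0.22. Eif4e, the cap-binding protein, was measured at 7.45, 6.94 and 7.25 in platelets, whereas the progenitor arrays read 4.01, 4.13 and 4.06, all just below the floor. The difference was 3.14 with SE 0.13 (8.82-fold, adjusted p = 3.44e-06), the lowest adjusted p among the factors, or 2.98 from the floor. Its paralogs gave smaller values. Eif4e2, which competes for the cap without joining eIF4G, was at 5.46, 5.26 and 5.47 in platelets against 5.22, 5.11 and 4.98 in progenitors (0.29, SE 0.10, adjusted p = 0.0298), and Eif4e3 at 5.14, 5.25 and 5.34 in platelets against 5.10, 5.05 and 5.13 in progenitors (0.15, SE 0.08). Both lay without overlap above progenitors but under 1.5-fold. Eif4e1b, known as an oocyte form, was lower at 4.43, 4.58 and 4.50 in platelets than in progenitors at 5.11, 5.08 and 5.17 (-0.62, SE 0.08, adjusted p = 0.000497). Relative to the median of all genes this difference was -0.35, and the call was lost under every other scaling tried and without either CTC41.5G-EVs array.

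Of the scaffold genes on the arrays, Eif4g2 rose and Eif4g3 was not called. Eif4g2, which encodes a shortened eIF4G that cannot bind eIF4E and serves initiation independent of it, was at 7.31, 7.09 and 7.28 in platelets and 5.03, 4.91 and 4.65 in progenitors. Its difference was 2.37 with SE 0.12 (5.16-fold, adjusted p = 7.19e-06). Eif4g3, a full-length scaffold, was at 5.14, 5.11 and 5.19 in platelets and 5.24, 5.13 and 5.08 in progenitors, with overlap and a difference of 0.00 (SE 0.09, adjusted p = 0.979).

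Cofactors of the helicase were higher too. Eif4h was at 6.43, 6.06 and 6.45 in platelets and 5.23, 5.48 and 5.21 in progenitors, a difference of 1.0 (SE 0.15, adjusted p = 0.000782). Eif4b, at 6.34, 6.17 and 6.31 in platelets against 5.77, 5.65 and 5.63 in progenitors, differed by 0.59 (SE 0.10, adjusted p = 0.00167), just past 1.5-fold, and by 0.55 without either PBS array, which ended its call. The helicase gene itself, Eif4a1, was not called: 5.28, 5.23 and 5.55 in platelets overlapped 5.56, 5.48 and 5.36 in progenitors (-0.11, SE 0.12), and the sign turned under all 3 other scalings. Eif4a1 has near-identical pseudogenes, as have Eef1a1, Eef1g and Tpt1, and the probes cannot be assumed to separate them.

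Repressors of eIF4E were higher alongside it. Eif4ebp1, the first 4E-binding protein, was at 7.56, 7.83 and 7.51 in platelets and 5.88, 6.30 and 6.39 in progenitors. The groups were clearly apart, by 1.45 with SE 0.15 (2.72-fold, adjusted p = 0.000168). Eif4ebp2, the related protein best known from brain, was at 7.24, 6.98 and 7.25 in platelets and 6.30, 6.63 and 6.64 in progenitors, a difference of 0.63 (SE 0.15, adjusted p = 0.00784). Without either CTC41.5G-EVs array the Eif4ebp2 difference was 0.48 and not called. Eif4enif1, the transporter that carries eIF4E into the nucleus, overlapped between the cell types (-0.02, SE 0.09).

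Of 7 elongation factor genes, 2 were higher in platelets and 0 lower, with a median of 0.40. Eef1b2, the exchange subunit of eEF1B, was at 6.38, 6.10 and 6.46 in platelets and 5.05, 5.05 and 4.87 in progenitors, a difference of 1.32 with SE 0.12 (2.50-fold, adjusted p = 9.17e-05). The other eEF1B subunit genes were not called. Eef1g differed by 0.40 (SE 0.13, adjusted p = 0.0282) and Eef1d by 0.16 (SE 0.12, adjusted p = 0.259), both without overlap. Eef1a1, the main eEF1A, read 9.57, 9.20 and 9.55 on platelet arrays and 9.09, 8.80 and 8.18 on progenitor arrays. The nearest values of the 2 cell types were 0.11 apart. The difference was 0.75 with SE 0.25 (adjusted p = 0.0287). Left without either PBS array it was 0.44, and without either CTC41.5G-EVs array 0.88, and it was not called in those fits.

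Its paralog Eef1a2, the muscle and neuron form, lay the other way at 5.37, 5.21 and 5.40 in platelets and 5.73, 5.84 and 5.61 in progenitors (-0.40, SE 0.11, adjusted p = 0.0131), under 1.5-fold, and its sign turned after centring on olfactory receptor genes. Eef2 was at 8.15, 7.75 and 8.09 in platelets and 7.70, 7.56 and 7.0 in progenitors, and its 0.57 (SE 0.20, adjusted p = 0.0374) missed the 1.5-fold threshold narrowly. Eef1e1, a scaffold protein of the tRNA synthetase complex in spite of its name, differed by -0.56 (SE 0.09, adjusted p = 0.00112), again under 1.5-fold, and turned above 0 after centring on olfactory receptor genes. The eEF2 kinase gene Eef2k differed by -0.29 (SE 0.09), a sign that turned under all 3 other scalings. Eif5a, the hypusine-carrying factor that helps stalled ribosomes, was at 6.73, 6.47 and 6.73 in platelets and 6.87, 6.57 and 6.51 in progenitors (-0.01, SE 0.13). Its paralog Eif5a2 was at 4.71, 4.48 and 4.51 in platelets against 4.59, 4.52 and 4.28 in progenitors (0.11, SE 0.09), and Eif6, which keeps large subunits from joining, differed by -0.11 (SE 0.11). None of the 3 was called, and each overlapped.

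Of the cytoplasmic poly(A) binding protein genes, Pabpc1 rose and Pabpc4 was not called. Pabpc1, which coats poly(A) tails and joins them to eIF4G, was at 9.60, 9.25 and 9.46 in platelets, against 6.43, 6.19 and 5.30 in progenitors. The progenitor PBS array was the lowest by 0.89, and the gap between the cell types was still 2.82 at its narrowest. The fitted difference was 3.46 with SE 0.24 (11.0-fold, adjusted p = 2.23e-05), and 3.11 to 3.66 when any 1 array was left out. Pabpc4, the form induced in activated T cells, was at 5.60, 5.54 and 5.64 in platelets and 5.78, 5.80 and 5.65 in progenitors (-0.15, SE 0.10, adjusted p = 0.201), and its sign turned under all 3 other scalings. Tpt1, translationally controlled tumour protein and a classical TOP message, was at 5.89, 5.85 and 5.90 in platelets and 5.09, 4.95 and 4.86 in progenitors. Its difference of 0.92 (SE 0.09, adjusted p = 0.000138) was 10.2 times its SE. Eif2c5, the non-coding gene, was lower, at 3.77, 4.04 and 4.10 in platelets, all under the floor, against 4.62, 4.65 and 4.81 in progenitors (-0.73, SE 0.10). That was -0.47 from the floor and relative to the median of all genes, and it was not called under any other scaling.

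A list of known TOP messages, not taken to be complete, held 11 of the 56 genes: Eef1a1, Eef1b2, Eef1d, Eef1g, Eef2, Eif3e, Eif3f, Eif3h, Eif4b, Pabpc1 and Tpt1. Of these, 8 were called higher and 0 lower in platelets, all 11 lay without overlap above progenitors, and their median difference was 0.75. Among all genes tested 16.2% were called higher, 25.7% were called lower and 24.2% lay without overlap above. The mean log2 signal of the 11 TOP genes per array was 7.24, 7.0 and 7.25 in platelets and 6.06, 5.95 and 5.64 in progenitors. The annotated starts of 6 of them were in the RefSeq table, and a run of C followed by at least 4 letters C or T within 10 bases of the start, on the gene's strand, was found in 2, shown here with the run in capitals. Such runs occurred in 14 of the 41 factors with an entry and in 28.8% of all genes in the table. They were found in 3 of the 15 factors called higher in platelets that had an entry, and in 11 of the 26 others. A match describes letters near an annotated start only, and whether it is the TOP tract at the cap was not tested.
Eif3f, chr7:108934405-108934434, plus strand, from 10 bases before the start: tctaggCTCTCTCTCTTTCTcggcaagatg
Eef1a1, chr9:78481705-78481734, minus strand, from 10 bases before the start: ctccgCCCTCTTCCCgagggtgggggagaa

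Scaling bore on every signed value above. The median of all genes tested was -0.26 as deposited, 0.05 after quantile normalization, 0.11 when arrays had equal medians and 0.45 after centring each array on olfactory receptor genes, which are taken to be silent in blood. Over the factors it was 0.23, 0.47, 0.60 and 0.94 in the same settings, so the distance between the medians was 0.49, 0.42, 0.49 and 0.49. In all 4 settings 43 or 44 of the 52 factors lay above the median of all genes. Equal medians and olfactory centring subtract a constant from each array and shift every gene alike. They therefore cannot change this distance or this count, and only quantile normalization could. Of the 19 factors below 0 as deposited, 11, 14 and 18 read above 0 under the other 3 scalings, and 0 went the other way. The 20 factors called higher as deposited were called in each of them, where 25, 26 and 41 factors were called under the other 3 scalings, and no factor was called lower in those. The median of all genes rose under each of the 3, which in itself favours calls of higher factors over calls of lower ones.

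**Figure D3:**
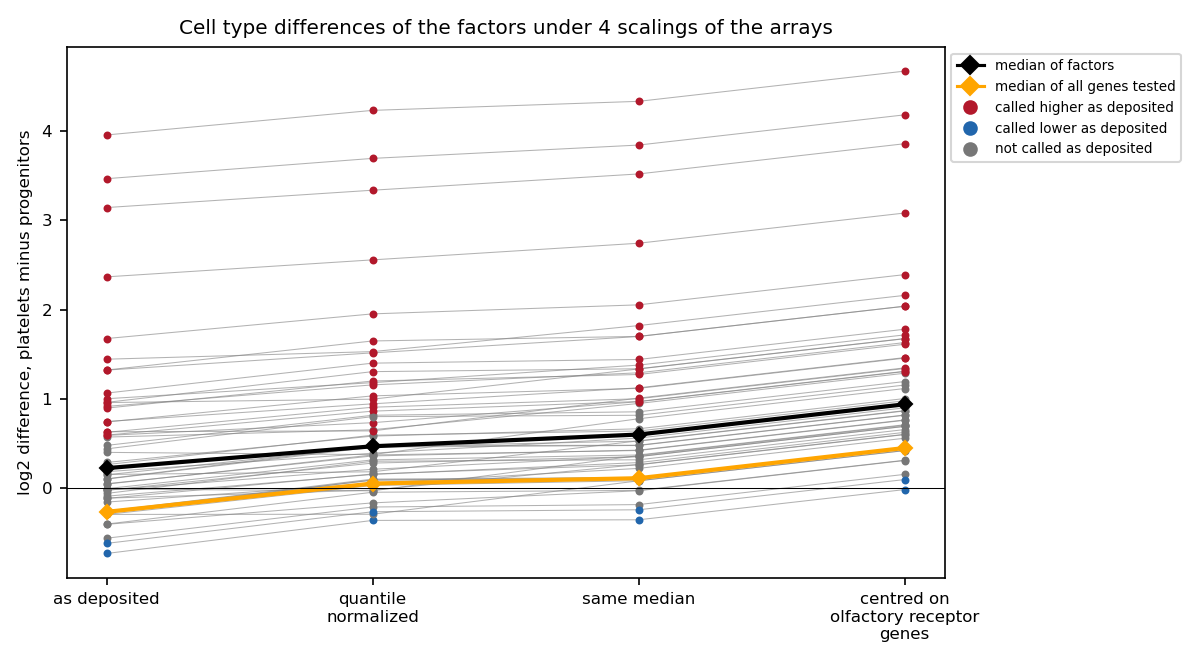
Log2 difference, platelets minus progenitors, of the 52 factors tested under 4 scalings of the arrays, with 1 grey line per gene, the median of the factors in black and that of all genes tested in orange. Both medians shift upwards from left to right, from 0.23 to 0.94 and from -0.26 to 0.45, and stay 0.42 to 0.49 apart. Equal medians and olfactory centring shift every gene alike and cannot change this distance.

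Other genes of translation control were set beside the factors, on the deposited scale, and their differences shift with the scaling too. Of 10 eIF2 kinase and integrated stress response genes tested, 4 were higher and 2 lower in platelets (median 0.05). Eif2ak1, the haem-regulated eIF2 kinase of red cell precursors, was at 6.13, 6.15 and 6.11 in platelets and 4.61, 4.55 and 4.48 in progenitors, a difference of 1.58 (SE 0.09, adjusted p = 8.01e-06), and the erythroid markers above moved the same way. The stress transcription factor genes Ddit3 and Atf4 rose by 2.20 (SE 0.12) and 1.38 (SE 0.15), and Ppp1r15b, which directs eIF2 dephosphorylation, by 1.01 (SE 0.11). Trib3 and Chac1, targets of that response, were lower by a difference of -0.64 (SE 0.09) and -0.63 (SE 0.09), and Eif2ak3 and Eif2ak4 were not called.

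Of 11 mTOR and MNK pathway genes tested, 2 were higher and 1 lower (median 0.10). Pdcd4, which blocks the helicase eIF4A, was at 5.98, 6.03 and 6.47 in platelets and 4.89, 4.84 and 4.63 in progenitors (1.37, SE 0.15), the mTOR activator Rheb differed by 0.59 (SE 0.10), and the mTOR subunit gene Mlst8 by -0.90 (SE 0.11). Paip2, a repressor that strips Pabpc1 from poly(A), was at 8.52, 8.37 and 8.43 in platelets and 6.12, 6.31 and 6.36 in progenitors, 2.18 apart (SE 0.15, adjusted p = 2.23e-05). It was the 1 gene called higher of 4 other poly(A) binding and PAIP genes tested, and Pabpc1l, an oocyte form, was the 1 called lower (-0.61, SE 0.09).

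Cytosolic aminoacyl-tRNA synthetases, which charge tRNAs for elongation, gave 1 higher and 3 lower of 16 tested (median -0.04). Nars was higher (0.63, SE 0.13), and Farsa (-0.74, SE 0.10), Cars (-0.61, SE 0.08) and Mars1 (-0.59, SE 0.09) were lower. Of 4 mitochondrial translation factor genes tested 0 were called (median 0.05), and of the termination genes 0 of 2, Etf1 at 0.46 (SE 0.10) and Hbs1l at 0.24 (SE 0.08). No test compared these lists with the factors.

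The second comparison asked whether the factors differed between treatments over both cell types. With CTC41.5G-EVs against CTC41-EVs, CTC41.5G-EVs against PBS and CTC41-EVs against PBS, limma called 0 of the 52 factors, where the share called over all genes was 0% in each of the 3. The lowest adjusted p of a factor was 0.837, 0.795 and 0.9999. At an unadjusted p under 0.05 there were 0, 0 and 2 factors, against 1157, 1171 and 577 genes. The 2 factors were Eif1a, higher with CTC41-EVs by 0.28 (SE 0.10, unadjusted p = 0.0277), and Eif3m, at -0.47 (SE 0.20, unadjusted p = 0.0495). With 1 array per group any treatment difference that is not shared by the cell types counts as residual spread in this fit, and the test of such an interaction was not possible.

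Within a cell type each comparison was 1 array against 1 array, with no test. The values that follow describe those arrays. The floor here was the 75th percentile of all probes, 5.066, for the mean over the 3 arrays of the cell type, which left 37 factors in platelets and 29 in progenitors. Comparisons with PBS in a cell type share the PBS array, and both comparisons with CTC41-EVs share that array.

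In platelets given CTC41-EVs, 32 of 37 factors read below PBS and 5 above, while 38.9% of all genes read above PBS, and the median log2 difference was -0.211 over the factors and -0.059 over all 8247 genes. At least 1.5-fold lower was 1 factor, Eif3m, where 2.34% of genes were, and 0 factors were at least 1.5-fold higher, where 0.449% of genes were. Eif3m read 4.99 with CTC41-EVs and 5.87 with PBS (-0.87). Next down was Eif3j2, at 6.77 with CTC41-EVs and 7.18 with PBS (-0.41), and furthest up were Eif1a (5.31 against 4.95, 0.36) and Eif4ebp1 (7.83 against 7.51, 0.32). The 10 TOP genes over the floor, all but Eif3e, were below PBS here, by a median of -0.24 and a range of -0.36 to -0.05. The platelet marker list, over all its genes on the arrays, had a median of -0.13, and its part in the shift was not tested.

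In platelets given CTC41.5G-EVs the factors lay close to PBS. Their median was -0.021, with 24 below and 13 above PBS. Over all genes it was 0.007, with 51.4% above PBS. Eif3m was again the 1 factor at least 1.5-fold lower, at 5.16 with CTC41.5G-EVs and 5.87 with PBS (-0.71, where 1.31% of genes were that much lower), and 0 were higher, where 0.643% of genes were. The others furthest from PBS were Eif4a1 (5.28 against 5.55, -0.27), Eif3h (9.93 against 9.61, 0.32) and Eif1a (5.26 against 4.95, 0.30). Of the 10 TOP genes over the floor 5 were above PBS, with a median of 0.00, while the platelet markers had a median of 0.35. The Eif3m signal of the PBS array was thus above both EV arrays, which lay 0.16 apart.

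Between the EV types in platelets, 30 of 37 factors and 61.0% of all genes read higher with CTC41.5G-EVs than with CTC41-EVs, with a median of 0.118 over the factors and 0.067 over all genes. Eif3h, at 9.93 with CTC41.5G-EVs and 9.33 with CTC41-EVs (0.60), was the 1 factor at least 1.5-fold higher, where 2.79% of genes were, and 0 were lower, where 0.885% of genes were. Eif4e followed with 7.45 against 6.94 (0.51). Lowest were Eif4ebp1, at 7.56 against 7.83 (-0.27), and Eif4e3, at 5.14 against 5.25 (-0.11). Of the 10 TOP genes over the floor 9 read higher, and the median was 0.24. The platelet markers had a median of 0.40 between the same arrays.

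**Figure D4:**
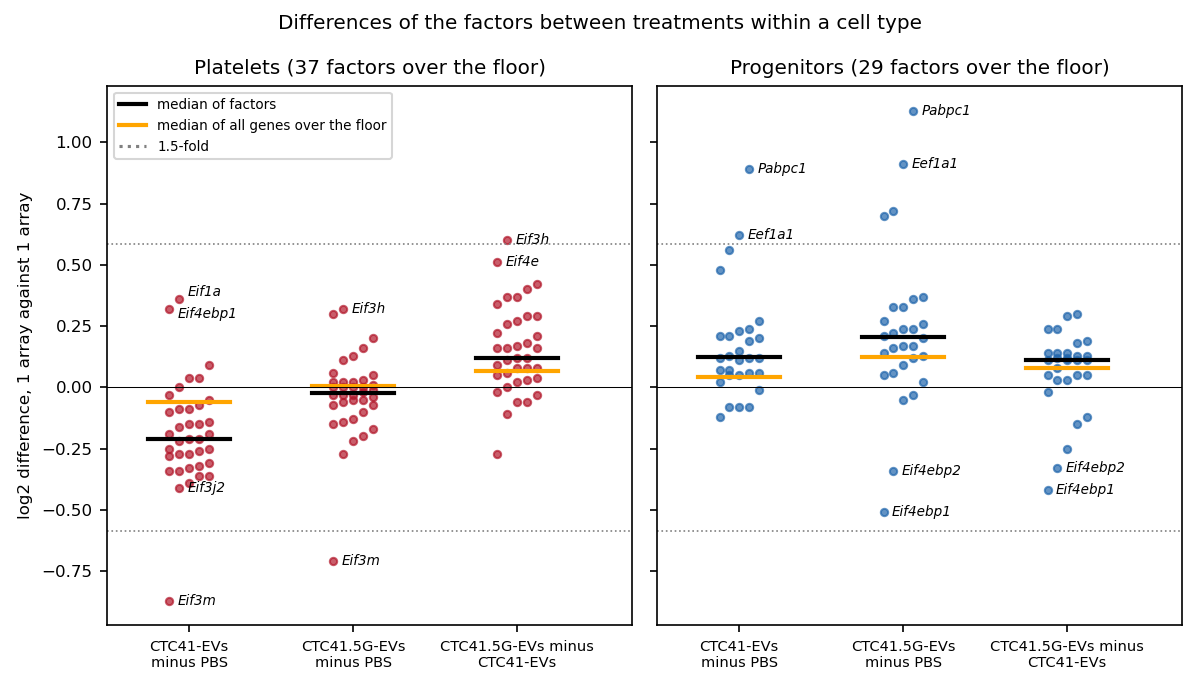
Log2 difference between treatments for each factor over the floor, in platelets (left) and progenitors (right), 1 array against 1 array with no test. Black bars mark the median of the factors, orange bars the median of all genes over the floor, and dotted lines 1.5-fold. In platelets with CTC41-EVs minus PBS most points lie below 0 (median -0.211), and in progenitors with CTC41.5G-EVs minus PBS most lie above it (median 0.205), with Pabpc1 at 1.13.

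In progenitors given CTC41-EVs, 24 of 29 factors and 62.7% of all genes read above PBS, with a median of 0.122 over the factors and 0.044 over all 10858 genes. Pabpc1, at 6.19 with CTC41-EVs and 5.30 with PBS (0.89), and Eef1a1, at 8.80 against 8.18 (0.62), were at least 1.5-fold higher, where 3.09% of genes were. None of the factors was at least 1.5-fold lower, a count of 0 where 0.101% of genes were. Eef2 (0.56) and Eif3h (0.48) came next. The lowest factors were Eif4a3l1, at 5.46 against 5.58 (-0.12), and Eif4ebp1, at 6.30 against 6.39 (-0.08). Of the TOP genes 7 were over the floor in progenitors, all but Eef1b2, Eif3e, Eif3f and Tpt1. These 7 read above PBS by a median of 0.48 and a range of 0.02 to 0.89. Over all 11 TOP genes, without a floor as for the marker lists, the median was 0.18. The medians of the neutrophil, stem and progenitor, and platelet markers were 0.20, 0.13 and 0.09 between the same arrays.

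With CTC41.5G-EVs in progenitors, 25 of 29 factors and 74.9% of all genes read above PBS, with a median of 0.205 over the factors and 0.125 over all genes. At least 1.5-fold higher were 4 factors, where 5.47% of genes were, and 0 were lower, where 0.746% of genes were. They were Pabpc1, at 6.43 with CTC41.5G-EVs and 5.30 with PBS (1.13), Eef1a1, at 9.09 against 8.18 (0.91), Eif3h, at 5.99 against 5.27 (0.72), and Eef2, at 7.70 against 7.0 (0.70). For these 4 genes the PBS array was the low one, and the EV arrays lay 0.13 to 0.29 apart. The 4E-binding protein genes were the ones furthest down, Eif4ebp1 at 5.88 with CTC41.5G-EVs and 6.39 with PBS (-0.51) and Eif4ebp2 at 6.30 against 6.64 (-0.34). The 7 TOP genes over the floor again read above PBS, with a median of 0.70, and the median over all 11 TOP genes was 0.23. The stem and progenitor markers had a median of 0.28, the platelet markers of 0.17 and the neutrophil markers of 0.11 between the same arrays, and their part in these differences was not tested.

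Between the EV types in progenitors, 23 of 29 factors and 68.5% of all genes read higher with CTC41.5G-EVs than with CTC41-EVs, with a median of 0.111 over the factors and 0.080 over all genes. No factor reached 1.5-fold in either direction, where 0.608% of genes were that much higher and 0.783% that much lower. Furthest up were Eif5a, at 6.87 with CTC41.5G-EVs and 6.57 with CTC41-EVs (0.30), and Eef1a1, at 9.09 against 8.80 (0.29). Eif4ebp1, at 5.88 against 6.30 (-0.42), and Eif4ebp2, at 6.30 against 6.63 (-0.33), were again the lowest. In progenitors the CTC41.5G-EVs array was thus the one low in both 4E-binding protein genes, while the PBS and CTC41-EVs arrays lay within 0.08 for Eif4ebp1 and 0.01 for Eif4ebp2.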

How the data were processed

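Platelet and progenitor RNA was hybridized to 6 Clariom D Mouse arrays. The authors deposited log2 values, from 0.233 to 14.055. Per the submitters' processing notes they used Affymetrix Expression Console 1.4.1.46, whereas the design text gives MAS5.0, so the scaling between arrays is not settled. Values were used as deposited, and precision is limited by the number of arrays. Of 72688 probes, 30604 carried a single gene symbol, 22818 of them matched RefSeq (GRCm38.p6) by Entrez identifier and 827 symbols were updated. RefSeq matched 55 of the 56 factors, all but Eef1g, whose probe carries that symbol alone but 2 gene identifiers, one of them now a pseudogene's.

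Tests used limma 3.58.1 (R 4.3.3) with additive cell type and treatment terms and moderated variances with an intensity trend, checked on simulated data. Of 18875 genes simulated 200 were changed, where the data had 3063 called higher and 4854 lower. Of the changed genes, 60% were called at a log2 difference of 1 and 88% at 2, with 1 false call. The adjustment of p is stricter where fewer genes change, so these rates do not give the share recovered in the data. A factor not called may still differ. SE is that of the fitted difference. Genes entered with a mean at or above the 50th percentile of all probes. Differences from the floor replace a lower cell type mean by 4.228. Values on all arrays are given for the called factors, the poly(A) binding proteins, Tpt1 and paralog pairs. The 2 factors furthest up and down in each treatment comparison are given at least on the arrays compared. Members and lists were chosen with earlier results of these data known, so no list was tested. Alternatives covered scaling, the floor, the variance model, treatment terms, probe choice and leaving out each array.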

Additional observations from a re-analysis of the deposited data

Results flagged for a closer look

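Some treatment differences of the factors had opposite signs in platelets and progenitors. Each was 1 array against 1 array, so the difference between the cell types was not tested. With CTC41-EVs against PBS the median of the factors was -0.211 in platelets and 0.122 in progenitors. In the same comparison Eef1a1 differed by -0.36 in platelets and 0.62 in progenitors, and Pabpc1 by -0.21 in platelets and 0.89 in progenitors. With CTC41.5G-EVs against PBS the medians were -0.021 in platelets and 0.205 in progenitors, and raising the floor to the 90th percentile gave 0.006 for platelets. The PBS array of each cell type enters both comparisons.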

How the results depend on the processing

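The count of factors called higher in platelets, 20 as deposited, ran from 16 to 21 when 1 array was left out and was 25 after quantile normalization, 26 with arrays scaled to the same median, 41 after centring on olfactory receptor genes and 8 with the floor at the 90th percentile, where 14 factors were tested. The count called lower, 2 as deposited, was 0 under each of these 3 scalings and with the floor at the 75th or 90th percentile, and 1 to 3 when 1 array was left out. The median cell type difference, 0.23, became 0.471, 0.603 and 0.94 under the scalings, 0.613 with the floor at the 90th percentile and 0.158 to 0.253 without 1 array. Over all genes 3063 were called higher and 4854 lower as deposited, against 4141 and 2282, 4673 and 1911, and 7581 and 1038 under the scalings, in the same order. With the floor at the 90th percentile, 1430 of 3066 genes were called higher and their median was 0.446, beside 0.613 for the factors. With the floor at the 75th percentile, 15 of 34 factors and 2389 of 9667 genes were called higher, with medians of 0.347 and -0.152. Within platelets, the median for CTC41.5G-EVs against CTC41-EVs was 0.261 with the floor at the 90th percentile. Of the 19 factors below 0 as deposited, 11, 14 and 18 turned positive under the scalings. Among the factors given on all arrays these were Eif4a1 (0.16), Eif4g3 (0.32) and Pabpc4 (0.06) after quantile normalization, joined by Eif5a with the same median (Eif4a1 0.26, Eif4g3 0.37, Eif5a 0.37, Pabpc4 0.22) and by Eef1a2 and Eif4e1b after olfactory centring (Eef1a2 0.31, Eif4a1 0.60, Eif4e1b 0.10, Eif4g3 0.71, Eif5a 0.71, Pabpc4 0.56). Leaving out 1 array moved Eif4g3 and Eif5a around 0, by -0.06 to 0.05 and -0.12 to 0.06. A higher floor tests fewer factors by construction. For the other changes the cause was not tested. The treatment terms already pair the arrays of 1 treatment, and without them 20 factors were called higher and 2 lower.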

Other observations

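Several factors are named on the arrays only together with a second gene, so their signal cannot be assigned to them alone, and no test was made. The probe of Eif5, the GTPase activator of eIF2, is shared with the small nucleolar RNA gene Snora28 and read 6.90, 6.84 and 7.13 in platelets with CTC41.5G-EVs, CTC41-EVs and PBS, against 4.80, 4.89 and 4.86 in progenitors in the same order. The probe of the helicase gene Eif4a2, shared with Snora81 and Snord2, read 4.30, 4.14 and 4.32 in platelets and 3.74, 3.61 and 3.53 in progenitors. Eif4a3, the helicase of the exon junction complex, shares a probe with Gm5576, which read 5.41, 5.27 and 5.53 in platelets and 5.75, 5.67 and 5.62 in progenitors. Eif3j2 has a probe of its own, used above, and one shared with Eif3j1, which read 5.05, 5.08 and 5.06 in platelets and 4.71, 4.92 and 4.73 in progenitors. On the shared probe the platelet values were the higher ones, while on its own probe Eif3j2 overlapped between the cell types.

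Another 5 genes of the family stand in the array annotation under older symbols and were not among the 56. Eef2kmt, the methyltransferase gene of eEF2, read 5.14, 4.90 and 5.18 in platelets and 6.12, 5.76 and 5.68 in progenitors. Eef1aknmt, which methylates eEF1A, read 4.79, 4.71 and 4.47 in platelets and 5.36, 5.20 and 5.09 in progenitors. Both lay without overlap below progenitors, as did 54.2% of all genes tested. Eef1akmt2, a lysine methyltransferase gene of eEF1A, lay without overlap above, as did 24.2% of all genes tested, at 4.25, 3.97 and 3.85 in platelets and 3.54, 3.45 and 3.59 in progenitors, and all but 1 of these values were below the floor of 4.228. The probes of Eef1akmt3 and Eif4a3l2 overlapped between the cell types.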
